A study of Mus musculus with 8 samples.

Results

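The mouse *Zfp* genes carry the names of zinc finger proteins, and the 250 described here are those whose probes were brightest in the control mice. They were chosen from a table of 28067 rows, 1 row per probe, for 17401 gene symbols. Of the 323 symbols in it that read Zfp followed by digits alone, each was represented by the row with the highest mean over the 4 control arrays, and the 250 symbols with the highest such means were kept. The other 73 symbols fell below the limit. The choice rested on the signal of the control arrays, so the levels below, and the control side of every difference, are descriptions of values that helped to choose the genes. A probe's brightness depends on its own sequence, so the order of the levels between genes is not an order of transcript amounts.

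The samples were labelled brown adipose tissue of C57BL/6J mice that were 12 weeks old, which the study's methods give as male and as interscapular fat. Co mice (n = 4) had received an intravenous injection of 100 μL of saline, and Pg mice (n = 4) the same volume with sonicated *Porphyromonas gingivalis*, a bacterium of periodontal disease, 18 h before sampling. The labels print the bacterial dose as 108 CFU, with the formatting of an exponent lost. Each mouse had 1 single-color Agilent array, and the comparison asked which transcripts differed in the tissue at 18 h.

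Most proteins of this family bind DNA through a row of C2H2 zinc fingers, short units that each hold a zinc ion and are joined by a conserved linker. Many of the mouse genes also encode a KRAB domain, which recruits the corepressor Trim28 and with it the histone methyltransferase Setdb1 and the heterochromatin proteins Cbx1, Cbx3 and Cbx5. Such KRAB zinc finger proteins are known for silencing retroelements, and many of their genes lie in clusters of related copies. Other members have separate roles in fat cell formation, in the decay of cytokine mRNAs or on the ribosome.

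Markers of the tissue were read first. *Ucp1*, the uncoupling protein of brown fat, and *Elovl3* had no row in the table, and the single probe of each was well above background on 0 of 8 arrays. Whether these probes respond to their transcripts was not tested. The study's PCR measured *Ucp1* in this tissue and gave a lower level in Pg mice. The other 8 brown adipocyte markers were measured, among them *Cidea* at a mean log2 signal of 13.37 ± 0.06 in Co mice and 13.29 ± 0.20 in Pg mice (SD, n = 4 each). Every Co and Pg array had all 10 skeletal muscle markers well above background. Their median Co level was 16.66 on the log2 scale, and the log2 of their summed signal ran from 20.39 to 20.50 in Co mice and from 20.35 to 20.44 in Pg mice. Of these 10, 7 had a lower mean in Pg mice, with a median difference of −0.13 and 3 at an unadjusted p under 0.05. *Atp2a1*, the calcium pump of fast muscle, fell by 0.46 (q = 0.046), with no overlap. Of the 8 brown adipocyte markers 4 were higher and 4 lower, with 0 called by limma and 2 at an unadjusted p under 0.05 (21.4% of all rows). These were *Dio2* (0.56, q = 0.11), with overlap, and *Pparg* (0.24, q = 0.15), with none. The study's PCR gave a lower *Pparg* in this tissue of Pg mice. The values below are therefore those of tissue labelled as brown fat that carried strong muscle transcripts and in which the *Ucp1* probe was not well above background. In whole tissue, fewer cells of a type and less RNA per cell cannot be told apart.

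Of the neutrophil, macrophage and lymphocyte markers measured, 0 were called by limma, with 2 at an unadjusted p under 0.05. The neutrophil genes *S100a8* and *S100a9* were high in Pg replicates 1 and 2, at log2 8.83 and 8.56 for *S100a8* against 5.64 to 6.07 in Co mice (q = 0.13). For *S100a8* Pg replicate 4 at 7.13 also lay above the Co range, and Pg replicate 3 at 6.00 lay within it. All 4 neutrophil markers measured had a higher mean in Pg mice, as did 43.2% of all rows, and their median difference was 0.93. The log2 of their summed signal, which is mostly that of *Csf3r*, was 15.17 to 15.58 in Co mice and 15.36 to 15.64 in Pg mice. For the 5 macrophage markers it was 11.02 to 11.46 and 10.74 to 11.70, and for the 4 lymphocyte markers measured 8.76 to 8.81 and 8.77 to 8.87. The probes that passed the scanner's mark for a signal well above background numbered 31132 to 34063 per Pg array and 34760 to 35830 per Co array. The spread of the negative control spots, as the median absolute deviation of their intensity, was 2.85 to 3.57 on the Pg arrays and 2.45 to 2.52 on the Co arrays. The 8 arrays lay on 1 slide, with the Co arrays in its first row and the Pg arrays in its second, so that slide row and group cannot be told apart. The part of the cell types and of the signal over background in the results below was not tested.

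Because many of the genes are related copies, the probe of a *Zfp* gene can lie in sequence that other genes share. For 10 of the 250 genes the 60-base probe covered the linker between fingers, that is, it held the codons for glycine, glutamate, lysine and proline in a row, in a reading frame without a stop codon. These probes are printed because 9 of the 10 genes had a lower mean in Pg mice. Capitals mark the 12 bases of the linker codons. Coordinates are the probe positions that the scanner output gives on NCBI37/mm9, and each probe is written 5′ to 3′ as spotted. The position of each probe within its gene's exons was not analysed here.
Zfp534 (chr4:147048379-147048437, minus strand): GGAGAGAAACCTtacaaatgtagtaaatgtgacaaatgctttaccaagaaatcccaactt
Zfp995 (chr17:22017398-22017457, minus strand): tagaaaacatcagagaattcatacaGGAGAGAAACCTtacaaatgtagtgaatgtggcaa
Zfp936 (chr7:50445732-50445791, plus strand): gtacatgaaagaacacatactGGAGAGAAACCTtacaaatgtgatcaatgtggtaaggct
Zfp935 (chr13:62555554-62555613, minus strand): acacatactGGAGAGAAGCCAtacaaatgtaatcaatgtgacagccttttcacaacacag
Zfp967 (chr2:175208144-175208203, plus strand): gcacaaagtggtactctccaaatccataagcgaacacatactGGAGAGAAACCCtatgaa
Zfp442 (chr2:150234210-150234269, minus strand): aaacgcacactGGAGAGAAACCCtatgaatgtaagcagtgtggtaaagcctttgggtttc
Zfp930 (chr8:71752264-71752323, plus strand): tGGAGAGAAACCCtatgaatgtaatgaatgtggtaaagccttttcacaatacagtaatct
Zfp709 (chr8:74414692-74414751, plus strand): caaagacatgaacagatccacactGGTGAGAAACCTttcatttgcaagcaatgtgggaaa
Zfp14 (chr7:30823139-30823198, minus strand): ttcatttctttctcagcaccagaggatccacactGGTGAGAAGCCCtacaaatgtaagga
Zfp51 (chr17:21602314-21602373, plus strand): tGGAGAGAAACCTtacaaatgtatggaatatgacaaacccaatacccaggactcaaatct

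Over all 250 genes the differences were small, and none reached the size of a differentially expressed gene. The log2 differences, Pg minus Co, ran from −0.53 for *Zfp534* to 0.50 for *Zfp521*, with a median of −0.02 against −0.03 over all rows of the table. For 196 genes (78.4%) the difference lay within 0.2 on the log2 scale, as it did for 73.9% of all rows. Of the 250 genes, 110 had a higher mean in Pg mice and 140 a lower one, beside 43.2% and 56.8% of all rows. Without normalization between arrays the tally turned to 144 higher and 106 lower, with a median of 0.03 against 0.04 over all rows. The median SD between replicates was 0.105 in Co mice and 0.093 in Pg mice on the log2 scale.

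At q under 0.1 in limma's moderated test, adjusted over all 28067 rows, 20 of the 250 genes (8%) were called, beside 6.11% of all rows. Of these, 5 rose (2.00%, beside 1.74% of all rows) and 15 fell (6.00%, beside 4.37%). With the scanner signal in place of the table, 4 rose and 23 fell after quantile normalization, and 0 rose and 11 fell after scaling to the 75th percentile, fits in which 7.82% of 33819 and 2.94% of 28067 rows were called. The study's rule for a differentially expressed gene, q under 0.1 together with a fold change above 1.5, was met by 0 genes, beside 0.378% of all rows, while 59 genes had an unadjusted p under 0.05 (23.6%, beside 21.4% of all rows, 6.94% higher and 14.4% lower in Pg mice). For 43 genes (17.2%) the 4 Co and the 4 Pg values did not overlap, beside 14.3% of all rows, with 15 of them higher (beside 4.35% of all rows) and 28 lower in Pg mice (beside 9.95%). The calls depended on single arrays. Without Co replicate 3 or without Pg replicate 2, 0 of the 250 genes were called, and without any other array 3 to 12 were, while the rows called in the whole table fell from 1715 to 14 and to 2. Each of the 20 genes kept the sign of its difference when any array was left out. For all but *Zfp655* the groups did not overlap, so leaving out an array could not change that sign. The plot of the called genes by array shows the values behind these counts.

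**Figure D1:**
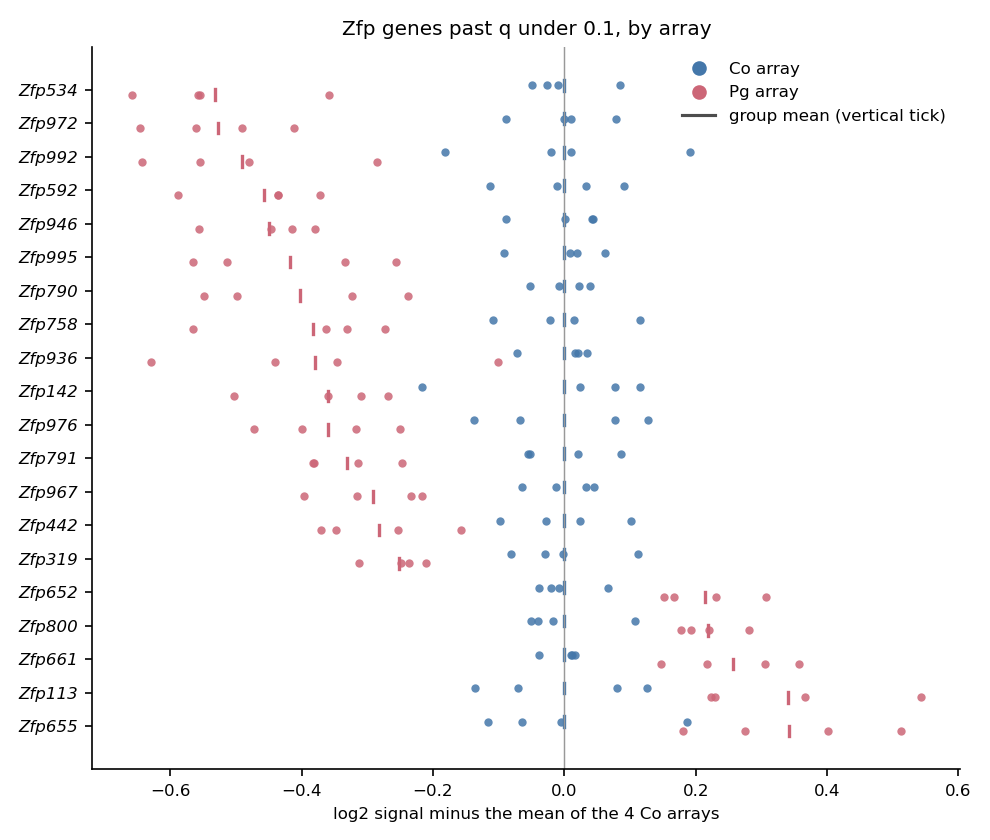
Log2 signal of each array minus the mean of the 4 Co arrays (horizontal axis) for the 20 *Zfp* genes past q under 0.1, ordered by their difference; points are single arrays of Co (blue) and Pg (red) mice and vertical ticks are group means. The 15 genes that fell lie at the top, from *Zfp534* at −0.53 to *Zfp319* at −0.25, and the 5 that rose at the bottom; only for *Zfp655* do the Co and Pg points overlap.

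*Zfp534*, a gene of the chromosome 4 cluster that lies between *Zfp979* and *Zfp984*, had the lowest difference. Its log2 signal was 9.86, 9.84, 9.97 and 9.88 in Co mice and 9.53, 9.23, 9.33 and 9.33 in Pg mice. All 4 Pg values lay below all 4 Co values, and the difference was −0.53 ± 0.08 (SE; q = 0.046). *Zfp972* on chromosome 2 read 9.24, 9.23, 9.30 and 9.14 in Co mice and 8.82, 8.74, 8.58 and 8.67 in Pg mice. The groups were again apart, by −0.53 ± 0.07 (q = 0.046). *Zfp972* and *Zfp534* were called in 6 of the 8 fits that left out 1 array, and so was *Zfp946*.

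*Zfp946* and *Zfp758* are neighbours on chromosome 17, and their probes share 23 bases. *Zfp946* read 9.82, 9.73, 9.86 and 9.86 in Co mice and 9.44, 9.26, 9.37 and 9.40 in Pg mice, a fall of −0.45 ± 0.06 (q = 0.046). *Zfp758* read 9.64, 9.51, 9.60 and 9.74 in Co mice and 9.35, 9.06, 9.29 and 9.26 in Pg mice, a fall of −0.38 ± 0.08 (q = 0.062) that was called in 1 of the 8 fits without 1 array. Neither gene's groups overlapped, and in both Pg replicate 2 was lowest. The second row of *Zfp758* in the table, a different probe, differed by −0.02 (q = 0.89). *Zfp995*, on the same chromosome between *Zfp820* and *Zfp942*, read 11.24, 11.14, 11.25 and 11.29 in Co mice and 10.98, 10.67, 10.72 and 10.90 in Pg mice. All its Pg values lay below the Co values (−0.42 ± 0.08, q = 0.058), and it was called in 2 of those 8 fits.

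*Zfp592*, whose protein works with Zfp687 and the chromatin reader Zmynd8, stands outside the clusters of copies, and its probe held neither linker codons nor a shared run. It read 8.49, 8.63, 8.59 and 8.69 in Co mice and 8.16, 8.16, 8.23 and 8.01 in Pg mice. The groups did not overlap, and the fall of −0.46 ± 0.07 (q = 0.046) was called in 5 of the 8 fits without 1 array. Its partner *Zfp687* differed by 0.02 (q = 0.90) in the row that stood for it, and by −0.33 (q = 0.093) in a dimmer row.

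The remaining genes that fell did so by 0.25 to 0.49. *Zfp992* fell by 0.49 (q = 0.059), *Zfp790* by 0.40 (q = 0.058), *Zfp936* by 0.38 (q = 0.098) and *Zfp142* by 0.36 (q = 0.080), and these were called in 1 to 3 of the 8 fits without 1 array. From the scanner output *Zfp142* was not called, at −0.19 (q = 0.32) with quantile-normalized signals, −0.21 (q = 0.32) with scaling to the 75th percentile and −0.16 (q = 0.35) with normexp. Outside the rule for naming genes, and named after their values were seen, were *Zfp976*, which fell by 0.36 (q = 0.070), *Zfp791* by 0.33 (q = 0.057), *Zfp967* by 0.29 (q = 0.065), *Zfp442* by 0.28 (q = 0.085) and *Zfp319* by 0.25 (q = 0.079). *Zfp791* was called in 4 of the 8 such fits, *Zfp967* in 2, and *Zfp976*, *Zfp442* and *Zfp319* in 0. *Zfp791* was well above background on all 4 Co arrays but on 1 of 4 Pg arrays, and *Zfp260* (−0.13), *Zfp709* (−0.16), *Zfp367* (0.02), *Zfp866* (−0.14) and *Zfp59* (0.06) were the other genes below that mark on some Pg array.

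The 5 genes that rose did so by at most 0.34. *Zfp113* read 7.90, 7.96, 8.16 and 8.11 in Co mice and 8.58, 8.26, 8.26 and 8.40 in Pg mice (0.34 ± 0.09, q = 0.097), with no overlap. *Zfp655*, whose protein binds the signalling protein Vav1, read 10.75, 10.49, 10.55 and 10.44 in Co mice and 11.07, 10.83, 10.74 and 10.96 in Pg mice (0.34 ± 0.09, q = 0.097). In *Zfp655* the highest Co value lay just above the lowest Pg value, and its second row differed by −0.08 (q = 0.78). Both genes lie on chromosome 5 next to members of the Zscan and Zkscan families, which pair zinc fingers with a SCAN domain. *Zfp661* rose by 0.26 (q = 0.078), *Zfp800* by 0.22 (q = 0.097) and *Zfp652*, which acts with the corepressor Cbfa2t3, by 0.21 (q = 0.099). *Zfp655* was called in 1 of the 8 fits without 1 array and the other 4 in 0.

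Further genes were apart between the groups without passing the test. *Zfp692*, an AMPK-regulated repressor of gluconeogenic genes, read 11.68, 11.57, 11.31 and 11.03 in Co mice and 11.83, 11.93, 11.74 and 11.77 in Pg mice. The Co values spread widely and the Pg values all lay above them (0.42 ± 0.13, q = 0.13), while its second row differed by 0.06 (q = 0.50). *Zfp827* (0.25, q = 0.15), *Zfp952* (0.24, q = 0.12, and called with normexp or a variance trend at q = 0.090 and 0.086), *Zfp612* (0.20, q = 0.19), *Zfp524* (0.19, q = 0.17) and *Zfp667* (0.18, q = 0.29) also had every Pg value above every Co value. Others lay below, such as *Zfp958* (−0.22, q = 0.12), *Zfp746* (−0.20, q = 0.17) and *Zfp937* (−0.18, q = 0.12), named after their values were seen. With the called genes included, 15 genes without overlap were higher and 28 lower. The plot of difference against brightness places all 250 genes among the rows of the table.

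**Figure D2:**
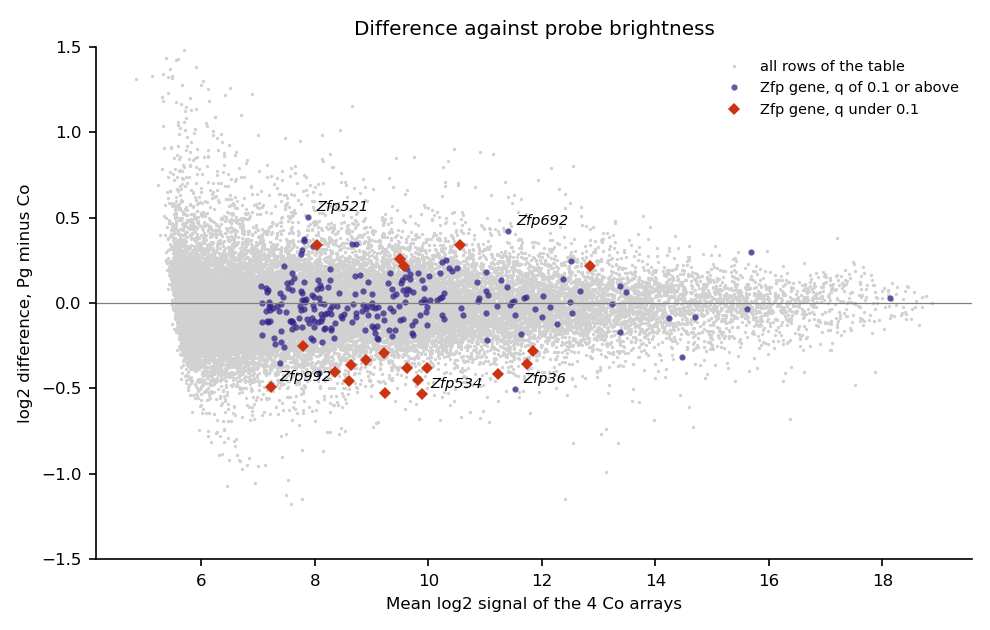
Log2 difference, Pg minus Co (vertical axis), against the mean log2 signal of the 4 Co arrays (horizontal axis) for all rows of the table (grey), the *Zfp* genes with q of 0.1 or above (blue circles) and those with q under 0.1 (red diamonds); 13 rows lie more than 1.5 from 0 and outside the axis. The *Zfp* genes lie between −0.53 and 0.50, and the other rows reach further in both directions.

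The genes were next taken by the brightness of their probes. Of the 73 genes with a Co mean between 7 and 8, 2 were called (2.74%, beside 6.88% of all rows in that range). Between 8 and 9, 5 of 56 were called (8.93%, beside 7.07%), and between 9 and 10, 8 of 60 (13.3%, beside 7.86%). Above 10, 5 of 61 were called (8.20%, beside 5.99%), and there 36 of the 61 genes had a higher mean in Pg mice, with a median difference of 0.02. The 5 brightest genes, *Zfp628*, *Zfp646*, *Zfp663*, *Zfp658* and *Zfp703*, had Co means from 18.14 down to 14.47, differences between −0.32 and 0.30, and q values of 0.16 or above.

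The genes whose probes cover the linker codons made up 5 of the 15 that fell. Among the 10 genes with such a probe, 9 had a lower mean in Pg mice and 5 fell at q under 0.1 (50%, beside 4.37% of all rows). Every Pg value lay below every Co value in 7 of them (70%, beside 9.95% of all rows). Their median difference was −0.29, against −0.02 for the 240 genes without linker codons, of which 10 fell and 5 rose. *Zfp534*, *Zfp995*, *Zfp936*, *Zfp967* and *Zfp442* were the 5 that fell. *Zfp935* (−0.35, q = 0.12), *Zfp930* (−0.21, q = 0.14), *Zfp709* (−0.16, q = 0.20) and *Zfp14* (−0.11, q = 0.35) were lower without passing the test, and *Zfp51* was higher by 0.13 (q = 0.45). This grouping was made after the values had been seen, and it was given no test.

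The table held 21 further rows whose probes cover the linker codons. Among them, rows of *Zfp72*, *Zfp53*, *Zfp345* and *Zfp820* were weighed in the choice of the 250 genes and not kept, and the others played no part in it. Of the 21 rows, 17 had a lower mean in Pg mice, 12 fell and 1 rose at q under 0.1, and the median difference was −0.33. They were measured on the same arrays as the 10 genes and were grouped by the same linker codons, so they are not separate evidence of a direction. A row of *Zfp72* fell most, from 8.38, 8.25, 8.35 and 8.31 in Co mice to 7.64, 7.78, 7.84 and 7.65 in Pg mice (−0.60, q = 0.042). A second probe of *Zfp72*, without linker codons, stood for the gene among the 250 and differed by 0.14 (q = 0.19). The same held for *Zfp53*, whose linker probe fell by 0.46 (q = 0.084) and whose brighter probe without linker codons differed by −0.01 (q = 0.97). A row of *Klf5*, a Krüppel-like factor that takes part in fat cell formation, fell by 0.52 (q = 0.049). The row that rose was of *Runx1t1* (0.51, q = 0.076), a corepressor that is no zinc finger gene of this class. Over all 31 rows with linker codons 54.8% fell, against 4.31% of the 28036 rows without them.

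**Figure D3:**
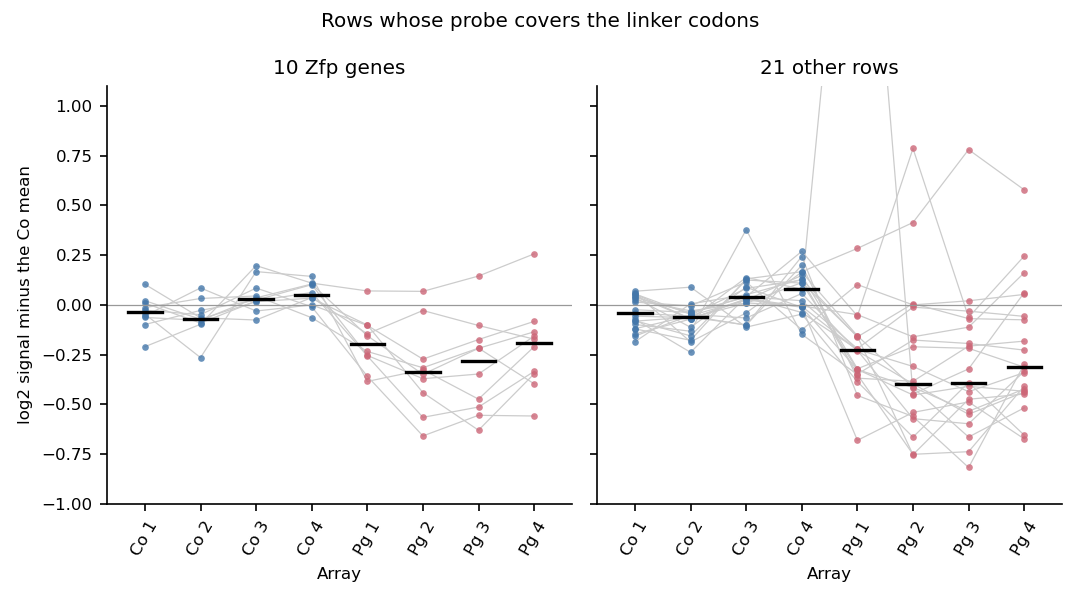
Log2 signal minus the mean of the 4 Co arrays (vertical axis) by array (horizontal axis) for the rows whose probe covers the linker codons, 10 *Zfp* genes (left) and 21 other rows (right); grey lines join the values of 1 row and black bars are medians. The medians of the 10 genes lie between −0.07 and 0.05 on the Co arrays and between −0.34 and −0.19 on the Pg arrays, those of the other rows between −0.40 and −0.23 on the Pg arrays; 1 point of the right panel (*Gm3325*, Pg replicate 1) lies above the axis.

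The fall was seen on every Pg array. Relative to the Co mean, the median of the 10 genes was −0.19, −0.34, −0.28 and −0.19 in Pg replicates 1 to 4, and that of the 21 other rows −0.23, −0.40, −0.39 and −0.31. The 240 genes without linker codons had medians of −0.01, −0.05, −0.01 and −0.01 on the same arrays. Pg replicate 2 was lowest in all these sets. Without it, 0 of the 31 rows with linker codons were called, and the medians were −0.27 and −0.33 for the 10 genes and the 21 other rows. Without Co replicate 3 again 0 were called, with medians of −0.27 and −0.32.

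Probes can also share sequence outside the linker. For 21 of the 250 genes at least 20 bases in a row of the probe also occurred in a probe of another gene name, and the longest such run was 42 bases, between *Zfp975* and *Itga6*. These 21 genes included 10 of the 15 that fell and none of the 5 that rose, with a median difference of −0.21, against −0.01 for the 229 others. *Zfp936* shared 37 bases with a probe of *Zfp932*, *Zfp972* 32 with *Gm14326*, *Zfp442* 31 with *Zfp937*, *Zfp995* 29 with *Zfp943* and *Zfp534* 24 with *2210404O09Rik*. The signal of such a probe cannot be assigned to 1 gene with certainty. Across the table, 83 of the 1327 rows with a shared run and no linker codons fell (6.25%), beside 4.37% of all rows. Among the 14 genes of the 250 with a shared run but no linker codons, 5 fell (35.7%) and the median was −0.08. *Zfp592*, *Zfp790*, *Zfp142*, *Zfp791* and *Zfp319* were the genes that fell with neither feature, 5 of 226 (2.21%, beside 4.37% of all rows).

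**Figure D4:**
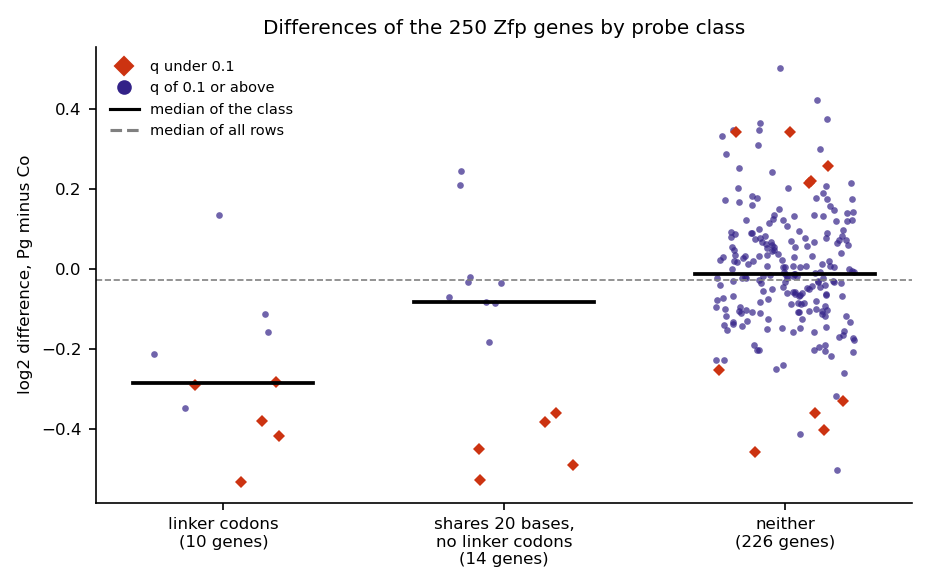
Log2 difference, Pg minus Co (vertical axis), of the 250 *Zfp* genes by the sequence of their probe, with linker codons (10 genes), with at least 20 bases shared with a probe of another gene name but no linker codons (14), or neither (226); red diamonds have q under 0.1, black bars are medians and the dashed line is the median of all rows, −0.03. Points are spread sideways at random. The medians are −0.29, −0.08 and −0.01 from left to right.

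The base composition of the probe moved with the differences as well, in groups that overlap with those by linker codons and shared runs. Of the 110 genes with a probe of under 40% GC, 12 fell and 2 rose, with a median of −0.04. Between 40% and 50% GC, 3 of 106 fell and 3 rose. At 50% GC or more, 0 of 34 were called by limma, beside 4.94% of all rows in that range, and the median difference was 0.04. An unadjusted p under 0.05 was found for 6 of these 34 (17.6%), beside 17.8% of all rows in that range. Over all rows the shares that fell in these 3 ranges were 5.03%, 4.31% and 3.44%, and the shares that rose 1.44%, 2.05% and 1.49%. Of the 12 genes that fell with under 40% GC, *Zfp534*, *Zfp972*, *Zfp992*, *Zfp946*, *Zfp995*, *Zfp758*, *Zfp936* and *Zfp976* carried linker codons or a shared run. The linker probes had a median GC of 39.2%, and the probes with a shared run 36.7%. The part of base composition in the fall of either group was not tested.

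A second look at the same genes came from the 88 other rows of 72 of them, all dimmer probes, with a median gap of 1.81 on the log2 scale. At q under 0.1, 10 of the 88 rows fell and 0 rose, among them, named after their values were seen, rows of *Zfp24* (−0.43, q = 0.046), *Zfp386* (−0.35, q = 0.058) and *Zfp276* (−0.31, q = 0.077), beside 4.37% of all rows that fell. In 49 of the 88 rows the difference had the same sign as in the row that stood for the gene, and across these rows Pearson's r between both differences was 0.07, given as a description because the rows share arrays and genes are not independent. Of the 20 called genes, 5 had another row. The sign was the same in 4 of those 5, and 0 of them were called by limma. In *Zfp972* the second row differed by −0.08, in *Zfp319* by −0.25 and in *Zfp652* by 0.05. The 170 other rows of all 323 symbols included 18 that fell (10.6%, beside 4.37% of all rows) and 0 that rose, with 41 at an unadjusted p under 0.05 (24.1%, beside 21.4%).

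Genes with a known part in fat cell formation came first among the roles, and 0 of these 8 were called by limma or had an unadjusted p under 0.05, beside 6.11% called and 21.4% under 0.05 of all rows. The 4 that were higher and the 4 that were lower had a median difference of 0.01. The count of 0 held for the table's values but not for the scanner output, from which *Zfp407* was called in all 3 normalized fits. *Zfp423*, which commits precursors to the fat lineage and holds back thermogenic genes in white fat, read 9.10, 9.24, 9.15 and 9.36 in Co mice and 9.03, 9.07, 9.20 and 9.14 in Pg mice. Its groups overlapped, and the difference was −0.10 with a 95% confidence interval from −0.27 to 0.07, and it was −0.15 to −0.23 in the fits from the scanner output. *Zfp516*, an activator of *Ucp1* and of brown fat genes, read 7.56, 7.53, 7.51 and 7.64 in Co mice and 7.34, 7.45, 7.47 and 7.55 in Pg mice (−0.11, from −0.25 to 0.04). Its values overlapped only through Pg replicate 4. The sign was not stable, at 0.08, 0.07 and 0.05 from the scanner output with quantile normalization, the 75th percentile and normexp.

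*Zfp521*, which opposes fat cell formation, had the highest difference of all 250 genes through 1 mouse. It read 7.91, 7.78, 7.89 and 7.90 in Co mice and 7.73, 8.17, 7.96 and 9.64 in Pg mice. Pg replicate 4 stood far above the rest, and the difference of 0.50 had an interval from −0.31 to 1.31 (q = 0.45). *Zfp467*, which favours fat over bone, differed by −0.02, and *Zfp638*, a cofactor of early fat cell differentiation, by 0.03, or by −0.06 and −0.09 with the scanner signal quantile-normalized or scaled to the 75th percentile. *Zfp407*, which promotes Pparg-dependent genes, differed by −0.11 (q = 0.38) in the table. From the scanner output it fell by 0.66 (q = 0.045) with quantile normalization, by 0.54 (q = 0.087) with the 75th percentile and by 0.27 (q = 0.056) with normexp, and without normalization it was at −0.48 (q = 0.19). *Zfp30* and *Zfp217*, both linked to fat cell formation, were higher by 0.16 (q = 0.36) and 0.05 (q = 0.77). A dimmer row of *Zfp30* differed the other way, by −0.36 (q = 0.062).

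Of the 3 genes tied to inflammation, 0 were called by limma and 2 had an unadjusted p under 0.05, beside 21.4% of all rows. *Zfp36* encodes tristetraprolin, which binds AU-rich elements of cytokine mRNAs and speeds their decay. It read 11.79, 11.56, 11.53 and 11.20 in Co mice and 10.88, 10.76, 11.36 and 11.08 in Pg mice. Pg replicates 1, 2 and 4 lay below all Co mice and Pg replicate 3 did not, and the difference was −0.50 ± 0.15 (SE) with an interval from −0.86 to −0.15 (q = 0.12). It was called with quantile-normalized scanner signals (−0.55, q = 0.099), with a variance trend (q = 0.095) and without Pg replicate 3 (−0.62, q = 0.082). Its relatives *Zfp36l1* and *Zfp36l2*, which are not among the 250, differed by −0.23 (q = 0.16) and 0.15 (q = 0.50). *Zfp91*, a ubiquitin ligase of non-canonical NF-κB signalling, read 13.30, 13.37, 13.42 and 13.40 in Co mice and 13.24, 13.10, 13.22 and 13.25 in Pg mice. All Pg values lay below the Co values by a small margin (−0.17 ± 0.06, q = 0.16, and q = 0.097 with a variance trend), and a dimmer row of the gene fell by 0.25 (q = 0.091). *Zfp64*, a transcriptional coactivator, differed by 0.03 (q = 0.79), and by 0.33 to 0.39 in the 4 fits from the scanner output (q = 0.15 to 0.34).

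The 7 genes that act on RNA or ribosomes had differences between −0.12 and 0.10, with 0 called by limma (6.11% of all rows) and 0 at an unadjusted p under 0.05 (21.4% of all rows). *Zfp598*, the ubiquitin ligase that marks collided ribosomes, read between 10.92 and 11.11 in the 4 Co mice and between 10.91 and 11.03 in the 4 Pg mice. The groups overlapped throughout, and the interval of the difference ran from −0.20 to 0.09. *Zfp622*, a maturation factor of the large ribosomal subunit, was higher by 0.10 (q = 0.51), *Zfp326*, of a complex that couples splicing to transcription, lower by 0.12 (q = 0.29), and *Zfp106*, *Zfp207*, *Zfp346* and *Zfp638* lay between −0.08 and 0.08. With quantile-normalized scanner signals *Zfp106* (0.01), *Zfp207* (−0.12) and *Zfp638* (−0.06) had the opposite sign.

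Genes known for silencing retroelements or keeping imprints were sparse. Of the 8 listed, *Zfp445*, *Zfp568* and *Zfp932* were among the 250, *Zfp57*, *Zfp809* and *Zfp708* fell below the limit, and *Zfp92* and *Zfp819* had no row. *Zfp445*, which helps to keep genomic imprints, differed by −0.09 (q = 0.50), and from the scanner output by −0.19 with quantile normalization, by −0.05 with the 75th percentile and with normexp and by 0.00 without normalization. *Zfp932*, which represses endogenous retroviruses, differed by −0.07 (q = 0.60), and by −0.03 to 0.03 in the fits from the scanner output. *Zfp568*, the repressor of a placental *Igf2* transcript, read 10.25, 10.40, 10.25 and 10.05 in Co mice and 10.58, 10.68, 10.31 and 10.35 in Pg mice. Its groups overlapped, and the difference of 0.24 had an interval from 0.00 to 0.48 (q = 0.23), while the fits from the scanner output gave 0.34 to 0.42 (q = 0.13 to 0.25). *Zfp708*, which stood below the limit with a Co mean of 6.12, fell by 0.52 (q = 0.066).

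All 5 DNA-binding regulators outside the KRAB class, *Zfp143*, *Zfp148*, *Zfp281*, *Zfp335* and *Zfp410*, had a lower mean in Pg mice in the table, by 0.02 to 0.18, as did 56.8% of all rows. By limma 0 of the 5 were called (6.11% of all rows) and 0 had an unadjusted p under 0.05 (21.4% of all rows). In the fits from the scanner output *Zfp148* (0.03 to 0.08) and *Zfp281* (0.01 to 0.07) had a higher mean. *Zfp410*, an activator of *Chd4*, differed most (−0.18, from −0.38 to 0.03, q = 0.28), and *Chd4* itself was higher by 0.15 (q = 0.33). The 4 genes of the last list also had lower means in the table (56.8% of all rows), with 0 called by limma (6.11%) and 1 at an unadjusted p under 0.05 (21.4%). In this list *Zfp110* and *Zfp369*, which bind the p75 neurotrophin receptor, differed by −0.02 and −0.06, and *Zfp110* by 0.14 to 0.19 in the fits from the scanner output. The NET family genes *Zfp503* and *Zfp703*, which lack the usual DNA-binding fingers, differed by −0.25 (q = 0.29) and −0.32 (q = 0.19). *Zfp703* read 14.65, 14.49, 14.30 and 14.42 in Co mice and 13.86, 14.20, 14.42 and 14.11 in Pg mice, with overlap through Pg replicate 3.

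**Figure D5:**
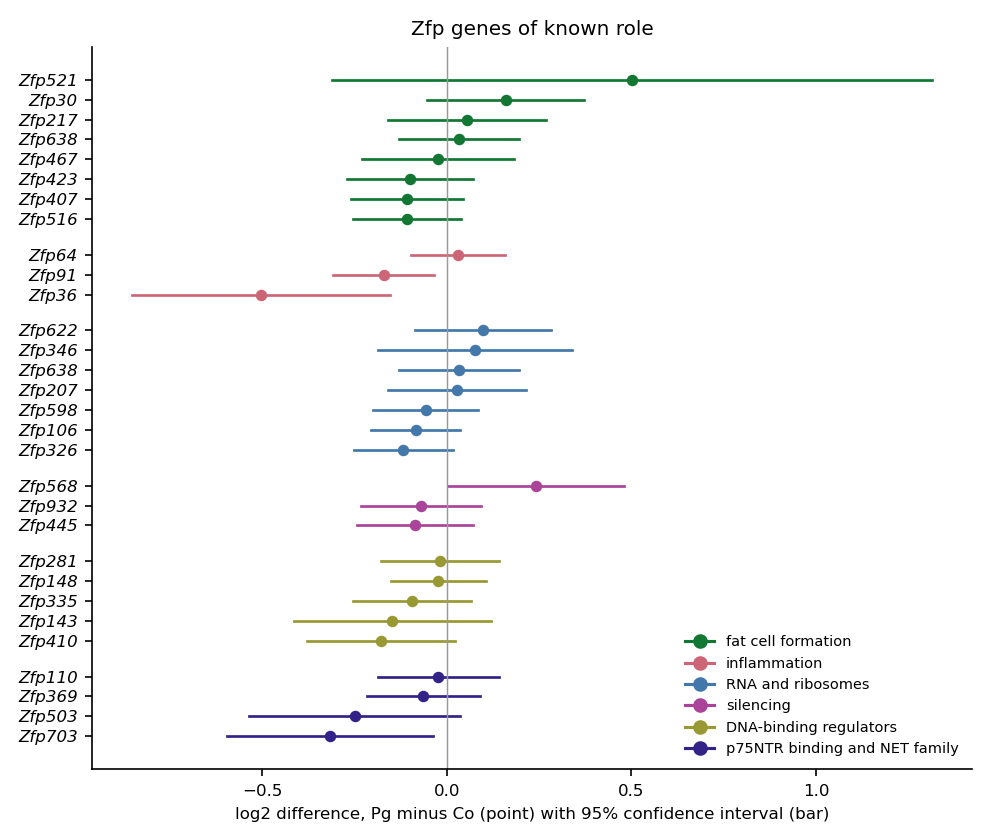
Log2 difference, Pg minus Co (points, horizontal axis), with its 95% confidence interval from limma (bars) for the *Zfp* genes of known role, coloured by list; *Zfp638* stands in 2 lists. Intervals of *Zfp36*, *Zfp91* and *Zfp703* lie below 0, that of *Zfp568* just touches it from above, and that of *Zfp521* is the widest, from −0.31 to 1.31.

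The complex that KRAB zinc finger proteins recruit was measured through 22 genes, of which 10 were higher and 12 lower, with a median of −0.03. *Trim28*, its scaffold, read 10.66, 10.77, 10.82 and 10.93 in Co mice and 10.50, 10.67, 10.60 and 10.56 in Pg mice. The groups overlapped by a small margin (−0.21 ± 0.07, q = 0.16). *Setdb1*, the methyltransferase, differed by 0.05 (q = 0.74). *Cbx1*, a heterochromatin protein, rose from 10.88, 11.02, 11.15 and 11.26 in Co mice to 11.52, 11.46, 11.44 and 11.54 in Pg mice (0.41 ± 0.09, q = 0.061). *Hdac2*, a histone deacetylase of the NuRD complex, fell from 7.45, 7.23, 7.42 and 7.45 to 6.84, 6.71, 7.07 and 7.12 (−0.45 ± 0.10, q = 0.071), while its partner *Hdac1* was higher by 0.15 (q = 0.20). *Cbx1*, *Hdac2* and *Hdac1* had no overlap between the groups. Nor did *Kdm1a* (0.10, q = 0.30), *Atf7ip* (−0.27, q = 0.11) and *Dnmt1* (−0.28, q = 0.21), named after their values were seen. The 2 called of 22 compare with 6.11% of all rows, and 7 of 22 had an unadjusted p under 0.05, beside 21.4% of all rows. From the scanner output 4 of the 22 were called with quantile normalization, 3 with the 75th percentile, 6 with normexp and 0 without normalization. Only in the fit without Pg replicate 3 were both *Cbx1* and *Hdac2* called, and the other fits without 1 array called 1 or 0 of the 22.

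In the genome the 250 genes lay on 20 chromosomes, with 64 on chromosome 7 and 32 on chromosome 17. By the gene order of GRCm38.p6, 124 had another *Zfp* gene directly beside them, 125 had none, and 1 had no place in that order. Of the 124, 8 fell and 0 rose by limma, with a median of −0.01. Of the 125, 7 fell and 5 rose, with a median of −0.03. Among all rows 4.37% fell and 1.74% rose. An unadjusted p under 0.05 was found for 31 of the 124 and 28 of the 125, beside 21.4% of all rows. The difference between these groups was not tested. Without the linker probes, 5 of 117 genes beside another *Zfp* gene fell (4.27%, beside 4.37% of all rows). By chromosome, 4 of 64 fell on chromosome 7, 3 of 32 on 17, 3 of 17 on 2, 2 of 20 on 8 and 2 of 14 on 4, beside 4.37% of all rows. The genes that rose were 2 of 12 on chromosome 5, 1 of 17 on 2, 1 of 11 on 6 and 1 of 13 on 11, beside 1.74% of all rows. On chromosome 13, 0 of 14 and on chromosome 9, 0 of 11 were called by limma, beside 6.11% of all rows.

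RefSeq promoters (GRCm38.p6, 250 bases before to 50 after the start) were matched for 209 of the 250 genes. They held a median of 15 CpG dinucleotides, against 7 over all 27025 promoters of that table, and a median GC content of 55.3% against 52.7%. The GC box GGGCGG, searched on both strands, occurred in 49.8% of them and in 35.9% of all promoters. The E-box CACGTG occurred in 7.66% and 7.24%, and TGANTCA, the letters of an AP-1 site, in 3.83% and 7.93%. Among the 14 matched promoters of genes that fell, GGGCGG was found in 35.7%, CACGTG in 21.4% and TGANTCA in 7.14%. Of the 5 promoters of genes that rose, 60% held GGGCGG, 0% CACGTG and 40% TGANTCA. These are matches of letters and no measured binding.

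Other zinc finger families, with the brightest probe per gene, gave 5 called of 39 *Zbtb* genes, 1 of 20 *Zscan* and *Zkscan* genes and 5 of 14 Krüppel-like factors, beside 984 of all 17401 genes (5.65%). The *Zbtb* and *Zscan* groups had median differences of −0.04 and 0.00. None of these families was tested against the *Zfp* genes. Just inside the limit of the 250 stood *Zfp438*, *Zfp839* and *Zfp429*, with Co means of 7.07, 7.06 and 7.06 and differences of −0.11, −0.19 and 0.10. Just outside stood *Zfp619*, *Zfp623* and *Zfp455*, with Co means of 7.06, 7.05 and 7.03 and differences of −0.28, −0.05 and −0.16. The 73 symbols below the limit included 8 that fell and 0 that rose by limma (11%, beside 4.37% of all rows that fell), with 18 at an unadjusted p under 0.05 (24.7%, beside 21.4%).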

How the data were processed

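Expression was measured on 8 single-color Agilent arrays, 1 per mouse. The authors deposited the scanner output of Feature Extraction 11.0.1.1 and a table with quantile-normalized log2 values of 28067 rows. The signal, background step and filter behind the log2 values the authors deposited are not given in the sources used here. The table's own comparison columns (fold change, p and q) were not used. From the scanner output, the intensity columns as deposited by the authors, without normalization between arrays, served for alternatives, and its flags gave which probes were well above background. That flag passed for 244 of the 250 genes on all 8 arrays. No row was dropped or imputed.

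The table's log2 values were fitted with lmFit and eBayes of limma 3.58.1 in R 4.3.3, two-sided, over all 28067 rows, with Benjamini-Hochberg adjustment. Precision is limited by having 4 arrays in each group, for which the smallest p of an exact permutation test would be 0.0286. The script was tested on simulated data. The named genes were the role lists, the 10 highest and 10 lowest differences among genes without overlap, the 5 brightest, the 3 on each side of the limit, the cell type markers, and of the corepressor list those called with *Trim28* and *Setdb1*. The genes and lists were chosen with earlier results of these data known, and the linker and shared-run groups after these values were seen. Numbers of fingers and KRAB domains per protein were not analysed here. Alternatives covered the scanner signals and their scaling, background, filter, variance prior, choice of rows, replicate number as a block and each array left out.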

Additional observations from a re-analysis of the deposited data

Results flagged for a closer look

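Among the 112 groups of 4 arrays formed by the 56 named genes and both conditions, 6 (5.36%) held an array whose gap to its nearest neighbour as a share of the group's range was above the 95% critical value of Dixon's test for 4 values. Chance flags about 1 in 20 such groups. In *Zfp521*, Co replicate 2 (7.78) stood below the others (7.89 to 7.91), a gap of 0.871 of the range. In *Zfp936*, the same mouse (9.90) stood below 9.99 to 10.01, with 0.838, and in *Zfp667* (7.35) below 7.67 to 7.70, with 0.916. In *Zfp661*, Co replicate 1 (9.46) stood below 9.51 to 9.52, with 0.903. In *Zfp369*, Pg replicate 1 (8.57) stood above 8.40 to 8.42, with 0.918, and in *Zfp217*, Pg replicate 4 (8.87) above 8.70 to 8.73, with 0.833.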

How the results depend on the processing

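The 20 called genes kept the sign of their difference in all 15 refits (19 of 19 where 1 gene was filtered out). The filter, the block and the variance trend leave each difference unchanged, and leaving out an array cannot turn groups without overlap. Apart from *Zfp655*, only the fits from the scanner output could thus have changed a sign. The number of called genes did not hold. It was 11 when the scanner signal was scaled to the 75th percentile (0 rose and 11 fell, against 5 and 15), 0 without normalization between arrays and 0 to 12 with each array left out. It was 27 with quantile-normalized scanner signals and 27 with normexp, 24 with a variance trend, 19 among rows well above background on all 8 arrays, and 15 of 240 without the linker probes. Non-overlapping genes numbered 22 without normalization, against 43. The rows called in the whole table, 1715, became 825 with the 75th percentile, 27 without normalization, 2644 of 33819 with scanner signals, where more rows were kept, and 2 to 1394 with each array left out. Of the corepressor genes 2 became 0 without normalization, 4 with scanner signals, 6 with normexp and 0 to 2 with each array left out. Of the 20 called genes 15 were called again with quantile-normalized scanner signals, 8 with the 75th percentile and 18 with normexp. The signs of genes not called were less stable, with 44, 52, 33 and 60 changed by scanner signals, the 75th percentile, normexp and no normalization. The median of the 250 genes stayed between −0.03 and 0.03. Of the 10 linker genes 9 were lower in each refit that kept all 10.

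With the replicate number as a block, 0 of the 250 genes, 0 corepressor genes and 1 row of the whole table were called. The numbers are no stated pairing, and the deviations of same-numbered arrays correlated at 0.07, −0.05, −0.10 and 0.22 for replicates 1 to 4. The cause of these changes was not tested.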
